A study of Mus musculus with 2 samples.

Results

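The immediate early genes described here were 10 genes of 32227 in the count tables: Fos, Fosb, Jun, Junb, Atf3, Egr1, Nr4a1, Dusp1, Ier2 and Klf6. They were followed across the cell classes of the thick ascending limb (TAL), the nephron segment that reabsorbs salt through the cotransporter NKCC2, encoded by Slc12a1. There were 2 single-nucleus RNA libraries of mouse kidney, 1 from dissected cortex and 1 from dissected medulla, both from male B6 mice whose genotype was labelled WT and whose age was labelled 12 with no unit. In these NKCC2-INTACT mice (an NKCC2-CreERT2 line crossed to CAG-SUN1-sfGFP-Myc, a Cre-dependent nuclear tag), tamoxifen switched the tag on in Slc12a1-expressing cells, and tagged nuclei were sorted from kidneys that had been flushed with PBS and snap-frozen. The cortex was a superficial strip of each kidney slice and the medulla all that remained, so that deep cortex may lie in the medullary library. Both libraries shared this genotype, tamoxifen and sort, and nothing in the labels said how many mice each held, so each region was 1 sample and every interval below covers counting error only. No difference could be tested across replicates, and region and library cannot be told apart.

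Immediate early genes are switched on within minutes of a stimulus, without new protein synthesis, and their transcripts are short-lived. Growth factors, calcium, cAMP and stress reach them through ERK, other MAP kinases and protein kinase A, which act on SRF with its Elk partners and on CREB. They are also known to respond to tissue handling, ischaemia and dissociation.

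Nuclei with at least 10 Slc12a1 counts were taken as TAL, 5218 of 5442 in cortex and 7967 of 8121 in medulla. A TAL nucleus with at least 3 counts of Nos1 plus Pappa2 was called macula densa (MD), the plaque of cells at the end of the TAL that senses luminal salt. Of the rest, at least 2 counts of Tmem52b made it TAL-β, at least 2 of Tmem207 plus Gpc5 made it TAL-γ, and the remainder were TAL-α. Cortex held 2824 TAL-α, 1493 TAL-β, 248 TAL-γ and 653 MD nuclei, and medulla held 3776, 571, 3542 and 78. Median depth was 2427 counts per barcode in cortex and 2430 in medulla, and the libraries shared 0 barcodes. Each list of markers outside the rule was highest, in both libraries, in the class it names. The 8 MD markers summed to 7980 CPM (counts scaled to a fixed total per class, as usual for libraries of unequal size) in cortical MD and 736.1 CPM in TAL-α. The cortical γ class nevertheless carried more of the TAL-β list (4129 CPM) than of the TAL-γ list (1923 CPM), and is called here by its rule only. Cortical TAL-α held 475.4 CPM of the MD gene Robo2, against 67.07 CPM in medullary TAL-α.

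The members were scarce. They gave 1306 counts in the cortical TAL nuclei and 2305 in the medullary ones, which is 83.26 CPM (95% Poisson interval 78.8 to 87.9) and 113.2 CPM (108.7 to 117.9). At least 1 member was detected in 955 cortical nuclei (18.3%) and in 1749 medullary nuclei (21.95%). Jun, Klf6 and Dusp1 gave most of these counts, with 28.33%, 27.11% and 19.3% of the cortical sum and 24.6%, 24.08% and 39.22% of the medullary sum. At the other end, Fos gave 27 counts in cortex and 8 in medulla, Fosb 5 and 4, and Atf3 19 in each library. Of the 10 members these 3 gave the fewest counts.

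The uncalled barcodes, which hold free RNA, gave a comparison level. Barcodes of 1 to 100 counts that had not been called as nuclei held 115.1 CPM (102.6 to 128.8) of the members in cortex and 121.5 CPM (106.9 to 137.5) in medulla. The cortical TAL nuclei were below this level, at 0.723 times (95% interval 0.638 to 0.822), and the medullary ones were near it, at 0.932 times (0.818 to 1.07). In cortical TAL nuclei 4 members were lower than in free RNA with an interval that left out 1, namely Egr1 (5.48 against 9.03 CPM), Nr4a1 (4.02 against 7.15 CPM), Ier2 (3.44 against 6.40 CPM) and Dusp1 (16.06 against 25.96 CPM). A level at or below that of free RNA is not read below as expression in the nuclei. In medulla Nr4a1 (1.23 against 3.40 CPM) and Ier2 (2.01 against 5.35 CPM) were lower in the same way.

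**Figure D1:**
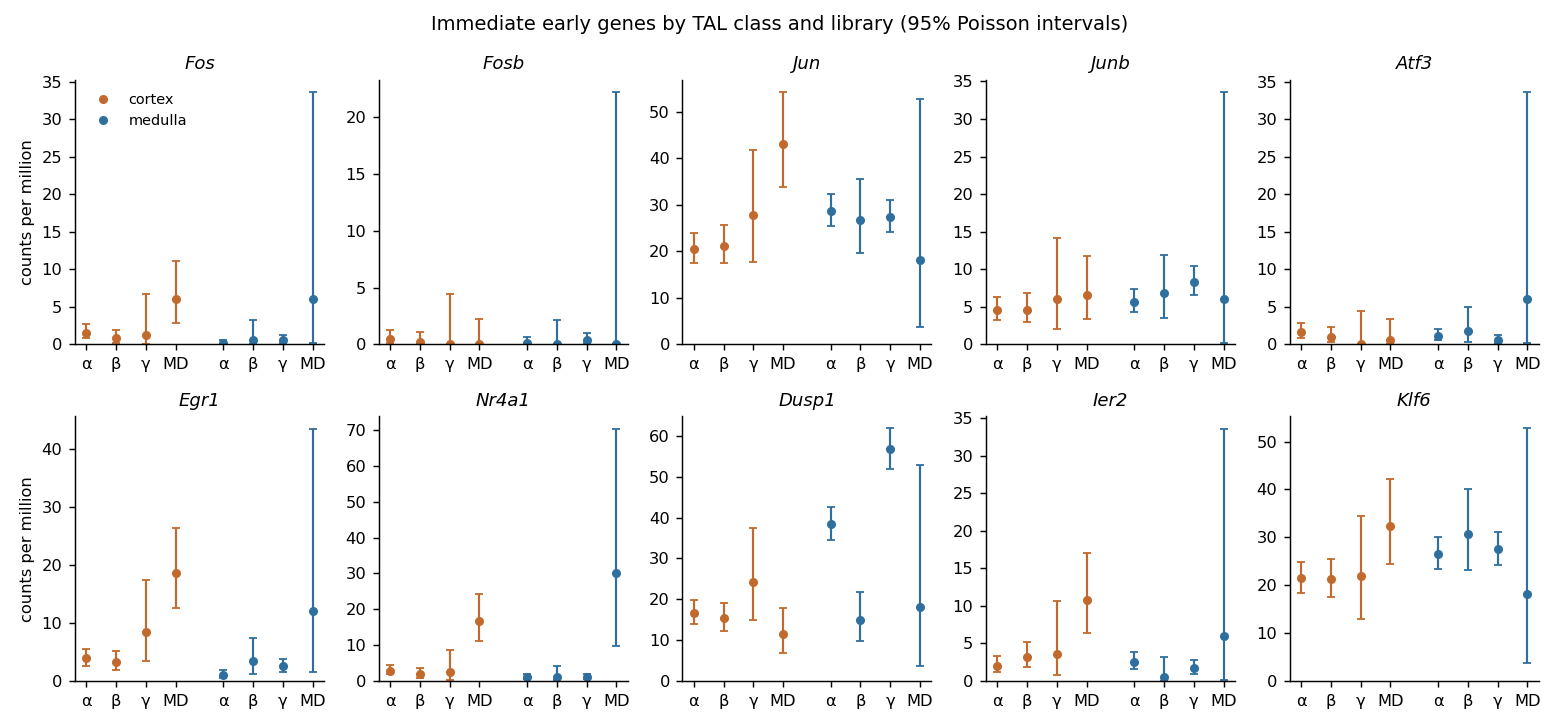
Level of each member in CPM (vertical axis, linear, own scale per gene) in the TAL classes of the cortical (orange) and medullary (blue) library, with bars giving 95% Poisson intervals of the summed counts. Egr1, Ier2 and Jun stand highest in cortical MD, Nr4a1 and Fos stand highest in MD of each library, Dusp1 stands highest in medullary TAL-γ and TAL-α, and the medullary MD values rest on 20 member counts in all.

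The MD class had the highest level of the members in cortex. Summed over the 10 genes it held 146.3 CPM against 75.7 CPM in TAL-α, a ratio of 1.93 (1.66 to 2.25), and 2.01 times (1.71 to 2.37) the 72.67 CPM of TAL-β. Of the 8 members with at least 20 counts in the pair of classes, 6 were at least 1.5 times higher in MD than in TAL-α and 0 were lower. Across all 13930 genes with that many counts, 15.3% were at least 1.5 times higher and 14.1% at least 1.5 times lower, with a median ratio of 1.03 against 3.04 over the 8 members. Fosb and Atf3 had too few counts to be compared.

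Nr4a1, an orphan nuclear receptor also called Nur77, had the largest ratio with all nuclei at full depth. That rank was not stable. With each nucleus thinned to 1000 counts, Ier2 (7.93) and Egr1 (6.49) were above Nr4a1 (4.33). Without deposited clusters rich in markers of other kidney cells, Egr1 (7.98), Fos (7.34) and Ier2 (6.41) were above it (5.44). The Nr4a1 transcript lies at chr15:101151980-101172681 on the plus strand (GRCm39). It gave 28 counts in 653 MD nuclei (16.8 CPM, 11.2 to 24.3), 23 in TAL-α (2.89 CPM), 10 in TAL-β (1.91 CPM) and 2 in the γ class (2.42 CPM). The MD level was 5.82 times (3.23 to 10.6) that of TAL-α and 8.78 times (4.14 to 20.3) that of TAL-β, and of these 4 levels it alone stood above the free RNA level of 7.15 CPM. In medulla the counts were fewer and MD was again the highest class, with 5 counts in 78 MD nuclei (30.1 CPM, 31.4 times TAL-α, interval 8.26 to 104), 9 each in TAL-α and TAL-γ, and 2 in TAL-β.

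Egr1, the zinc-finger factor downstream of ERK and SRF, followed the same pattern. Cortical MD held 31 counts (18.6 CPM, 12.6 to 26.4), TAL-α 31 (3.89 CPM), TAL-β 17 (3.25 CPM) and the γ class 7 (8.48 CPM). The MD level was 4.78 times (2.81 to 8.13) that of TAL-α and above the 9.03 CPM of free RNA. After each nucleus was thinned to 1000 counts, Egr1 was seen in 2.14% of MD nuclei (exact binomial interval 1.18% to 3.57%) and in 0.319% of TAL-α nuclei (0.146% to 0.604%), while at full depth the shares were 4.14% and 0.744%. Medullary MD gave 2 counts (12.05 CPM), 11.3 times TAL-α with an interval from 1.204 to 53.0.

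Ier2, a short nuclear protein gene of the serum response, gave 18 counts in cortical MD (10.8 CPM, 6.40 to 17.1) against 16 in TAL-α (2.01 CPM), a ratio of 5.37 (2.59 to 11.3). The free RNA level, 6.40 CPM, equalled the lower bound of the MD interval. In medullary MD it gave 1 count, and nothing can be said of it there.

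The AP-1 genes encode Fos and Jun proteins that bind DNA in pairs. Jun, which gave the most counts of them, held 43.2 CPM (33.8 to 54.4) in cortical MD, 20.6 CPM in TAL-α, 21.2 CPM in TAL-β and 27.9 CPM in the γ class, and MD was 2.10 times (1.57 to 2.78) TAL-α and above the 29.7 CPM of free RNA. Fos was 3.98 times higher in MD than in TAL-α (1.54 to 10.1), on 10 and 12 counts, or 6.00 against 1.51 CPM. The MD interval of Fos, 2.88 to 11.03 CPM, included the 3.01 CPM of free RNA. Junb, with 11 and 36 counts, was at 1.46 times with an interval that included 1 (0.670 to 2.93). Fosb was at 0 of 653 MD nuclei, which allows a level of up to 1.80 CPM (3 counts). Atf3, a stress-induced partner of Jun, gave 1 count in cortical MD and 13 in TAL-α.

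Klf6, a Krüppel-like factor, differed least among the members that were higher, with 32.4 CPM in MD and 21.5 CPM in TAL-α (1.51 times, 1.09 to 2.06). Its MD interval, 24.3 to 42.3 CPM, included the 24.8 CPM of free RNA. Its ratio interval included 1 with a Slc12a1 minimum of 20 (1.39, 0.958 to 1.97) and after thinning (1.60, 0.989 to 2.52), and with barcodes of 3 or more other-cell marker counts removed the ratio was 0.510 (0.0606 to 1.91). That last filter left 94 of 653 MD nuclei. There the intervals of Nr4a1 (4.72, 0.0958 to 47.7), Ier2 (9.43, 0.853 to 65.8) and Fos (18.9, 0.240 to 1481) included 1 too, as did that of Fos after thinning (2.88, 0.598 to 12.2). The filter used raw counts and included the podocyte list, at 2566 CPM in cortical MD and 885 CPM in TAL-α. Deeper nuclei and those with more podocyte-list counts, mostly Magi2 in MD, were thus removed more readily. Dusp1, the phosphatase that switches MAP kinases off again, held 11.4 CPM in cortical MD, 16.7 CPM in TAL-α and 15.3 CPM in TAL-β, and the ratio of MD to TAL-α was 0.682 with an interval that included 1 (0.398 to 1.11).

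Sequence around the transcription start was read for the members in the RefSeq promoter table (GRCm38.p6, 250 bases before and 50 after the start), which matched 8 of the 10 genes. Egr1 and Ier2, both higher in cortical MD, had no window, and sites further upstream were not searched for any member. The motifs searched on both strands were the cAMP response element TGACGTCA (CRE), its core TGACG, which lies inside it, the AP-1 site TGANTCA, the TATA box TATAAA, the GC box GGGCGG and the CArG box. A CRE core was in the windows of Fos, Fosb, Junb, Atf3, Nr4a1 and Dusp1, 6 of the 8, and in 20.81% of all 32851 windows. The windows of Jun and Klf6, which were also higher in cortical MD, held none. The whole CRE was in that of Dusp1 and in 1.79% of all windows. A TATA box was in those of Fos and Junb and in 13.62% of all, a GC box in 7 of the 8 and in 35.66%, and neither the AP-1 site (7.81% of all) nor the CArG box (1.63%) was in any of the 8. The Junb match to TATAAA covered bases 1 to 6 from the start and so did not lie before it. The windows below are those of the 2 members that were high in MD with the most CRE cores, Fos with 2 and Nr4a1 with 4, and of Dusp1, which was not high there. Capitals mark CRE and CRE cores on either strand and the TATA box; the Fos cores start 129 and 66 bases, and its TATA box 33 bases, before the start, and the Dusp1 CRE begins 143 bases before it. The windows are chr12:85473640-85473939 (plus strand), chr15:101266596-101266895 (plus strand) and chr17:26508423-26508722 (minus strand) of GRCm38.p6.
Fos: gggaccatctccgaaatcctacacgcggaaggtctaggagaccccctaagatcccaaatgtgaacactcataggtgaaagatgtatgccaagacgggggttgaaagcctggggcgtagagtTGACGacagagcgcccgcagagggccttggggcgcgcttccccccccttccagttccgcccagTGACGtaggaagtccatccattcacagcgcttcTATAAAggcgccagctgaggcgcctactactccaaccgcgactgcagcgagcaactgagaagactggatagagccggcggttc
Nr4a1: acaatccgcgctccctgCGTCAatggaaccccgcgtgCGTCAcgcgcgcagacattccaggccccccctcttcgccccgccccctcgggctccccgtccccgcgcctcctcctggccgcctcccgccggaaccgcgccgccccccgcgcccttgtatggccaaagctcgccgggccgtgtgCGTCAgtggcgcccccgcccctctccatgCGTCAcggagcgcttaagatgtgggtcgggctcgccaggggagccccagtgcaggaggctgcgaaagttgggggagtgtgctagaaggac
Dusp1: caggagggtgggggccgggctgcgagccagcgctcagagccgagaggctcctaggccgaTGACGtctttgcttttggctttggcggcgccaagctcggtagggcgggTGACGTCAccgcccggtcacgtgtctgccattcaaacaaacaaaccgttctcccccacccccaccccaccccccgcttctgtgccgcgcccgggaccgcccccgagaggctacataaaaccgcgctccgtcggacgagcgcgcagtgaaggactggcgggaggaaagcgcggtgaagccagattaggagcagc
A match is a string of letters and shows no binding, and no assay of binding was part of these data. Of these 3 genes, which all carry cores, Nr4a1 and Fos were at 5.82 and 3.98 times in cortical MD against TAL-α and Dusp1 at 0.682 times.

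The medullary MD class was small, and its sum of 20 counts (120.5 CPM) was 1.145 times that of TAL-α (0.696 to 1.78). Taking MD and TAL-α as the deposited clusters that held most of each, the ratio was 2.31 (1.49 to 3.44). This ratio depends on the TAL-α cluster taken, which had the lowest member sum of the medullary clusters, at 62.5 CPM. The MD cluster held 144.2 CPM, and clusters that were 76.58% and 64.21% TAL-α held 146.5 and 121.1 CPM. Of the 5 members with at least 20 counts in the pair, 1 (Ier2) was past 1.5 upward and 2 (Jun and Dusp1) downward, each with an interval that included 1, against 26.9% of all genes upward and 32.6% downward. Nr4a1 and Egr1, with under 20 counts, were the members whose own intervals left out 1, and that of Egr1 included 1 with stricter thresholds (6.12, 0.145 to 40.2) and after thinning.

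**Figure D2:**
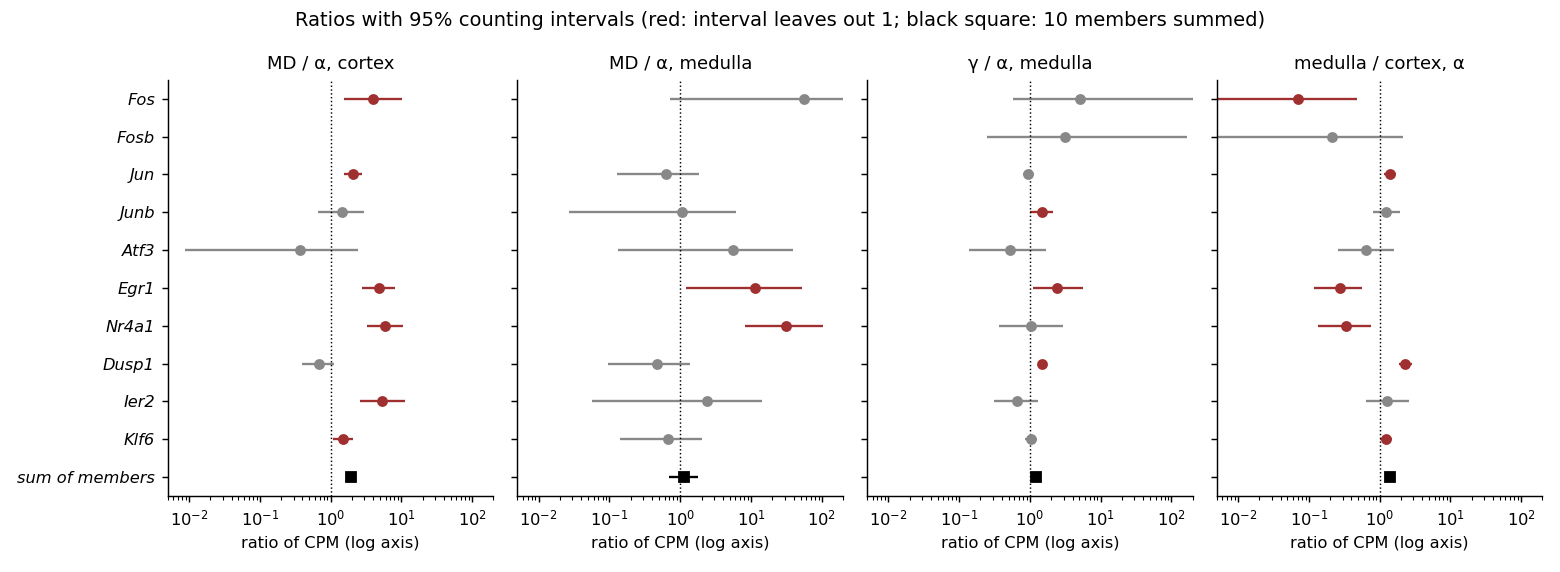
Ratio of CPM on a log axis for each member (circles) and for the sum of the 10 members (black squares), with 95% conditional binomial intervals that are cut at the panel edge where they run past it; red circles have an interval that leaves out 1, and members with 0 counts in a class are not drawn. Nr4a1 and Egr1 lie to the right of 1 in MD against TAL-α of both libraries and to the left in medulla against cortex within TAL-α, where Dusp1 lies to the right at 2.31.

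The cortical classes also differed in how much RNA of other kidney cells they carried. The 10 proximal tubule markers summed to 2783 CPM in MD, 3772 CPM in TAL-α and 4765 CPM in TAL-β, the 8 endothelial markers to 119.9, 101.4 and 200 CPM, and the 6 markers of distal convoluted and connecting tubule to 426.4, 177.5 and 875.7 CPM. No gene of these 3 lists was at 0 in any of the 3 classes. The podocyte list was higher in MD (2566 against 885 CPM), where Magi2 made up most of it, and in medullary MD the other 4 podocyte genes were at 0. The deposited clusters were made from all genes by the submitters' software and serve here only to describe. In cortex, 6 of 13 clusters held over 1000 CPM of other-cell markers (podocyte genes left out), at 4267 to 28480 CPM, and the other 7 held 483.1 to 741.2 CPM. Without the 6 rich clusters, 602 MD and 2359 TAL-α nuclei remained, and the MD sum was 154.8 CPM against 61.1 CPM, a ratio of 2.53 (2.12 to 3.03). Fosb then gave 0 counts in every cortical class. Dusp1 in TAL-α was at 16.7 CPM with those clusters and at 5.30 CPM without them, and in MD it was at 11.4 and 5.45 CPM.

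In the deposited cortical cluster that was 75.1% MD, the members summed to 191.7 CPM, with Jun at 57.0, Klf6 at 40.0, Egr1 at 33.9, Nr4a1 at 24.6, Ier2 at 11.6, Fos at 10.0 and Dusp1 at 4.62 CPM. In the cluster that was 98.79% TAL-α they summed to 49.2 CPM, with Egr1 at 0.586, Nr4a1 at 1.46, Fos at 0.293 and Dusp1 at 4.69 CPM. That sum was the lowest of the cortical clusters. Those that were 92.6% and 92.73% TAL-α summed to 51.7 and 84.2 CPM. The last held Klf6 at 37.8 CPM, near the MD cluster, and Egr1 and Nr4a1 at 0 CPM. The medullary cluster that was 71.72% MD summed to 144.2 CPM against 62.5 CPM in the one that was 96.56% TAL-α. Those that were 76.58% and 64.21% TAL-α summed to 146.5 and 121.1 CPM. The MD cluster held Nr4a1 at 26.7, Ier2 at 16.02, Egr1 at 10.7 and Fos at 10.7 CPM. The cluster that was 96.56% TAL-α held them at 0.747, 1.99, 0.747 and 0 CPM. The same 4 genes thus stood higher in the MD cluster of each library, though the medullary one gave only 27 member counts in all. There the ratios were 35.8 (6.96 to 230) for Nr4a1, 14.3 (1.195 to 125) for Egr1 and 8.05 (1.375 to 33.5) for Ier2. Fos has no ratio there, since the TAL-α cluster held none.

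**Figure D3:**
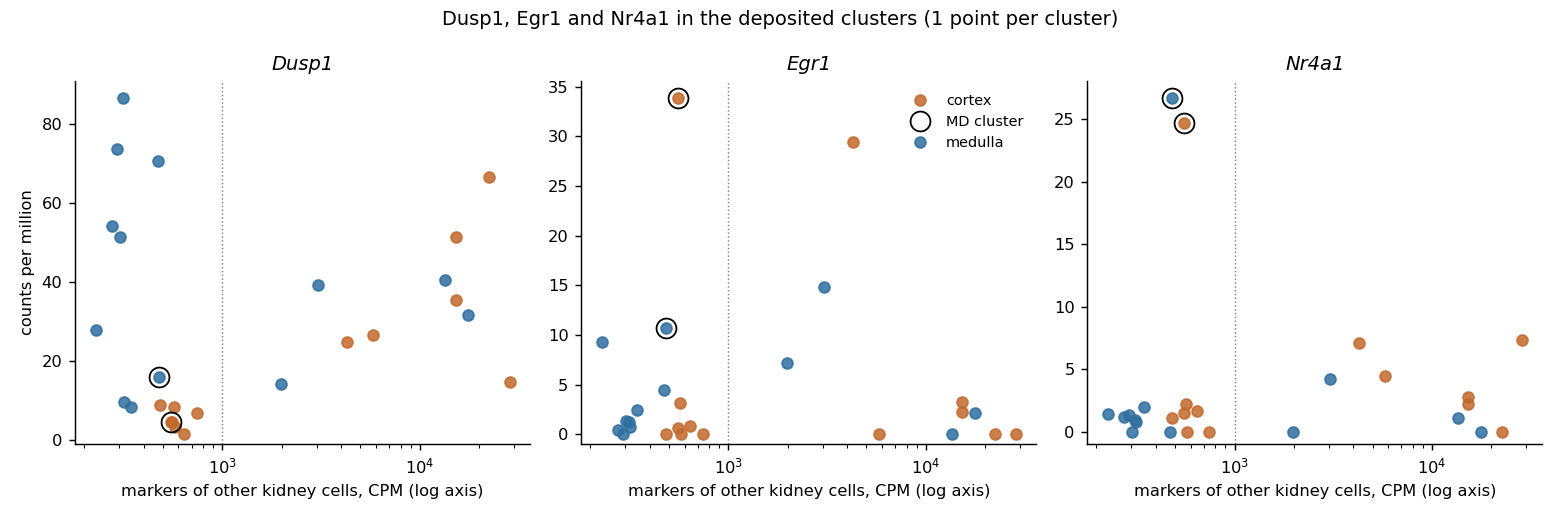
Level of Dusp1, Egr1 and Nr4a1 (vertical axes, CPM) in each deposited cluster against the summed markers of other kidney cells in that cluster (horizontal, log axis, CPM; dotted line at 1000), with the clusters that hold most MD nuclei ringed. The MD clusters have the highest Nr4a1, at 24.6 and 26.7, with few other-cell markers, whereas among cortical clusters Dusp1 exceeds 9 only to the right of the line and in medulla it reaches 86.6 to the left of it.

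Beyond the members, 31 other immediate early genes, 15 MAP kinase phosphatases and ERK feedback genes, and 26 kinases and factors that act on immediate early genes were followed. In cortical MD against TAL-α, 9 of 12 feedback genes with enough counts were at least 1.5 times higher and 0 lower, with a median ratio of 2.37, beside 15.3% and 14.1% of all genes. Spred2, which restrains Ras signalling to ERK, was at 270.5 against 111.2 CPM (2.43 times, 2.17 to 2.73), and Spred1 at 71.4 against 37.3 CPM (1.91 times, 1.53 to 2.38). Spry2 was at 1.54 times (0.985 to 2.35) and Dusp16, a phosphatase of JNK and p38, at 1.32 times (1.149 to 1.52). In medullary MD 7 of 10 were higher and 2 lower, beside 26.9% and 32.6% of all genes, with Spred2 at 1.96 times (1.36 to 2.74) and Spred1 at 2.16 times (1.195 to 3.60). Dusp5, an ERK phosphatase of the nucleus named after its values were seen, was at 5.73 times (3.26 to 10.2) in cortical and 18.1 times (7.05 to 41.4) in medullary MD. Dusp4 and Dusp10, of the same family as Dusp1 and also named after their values were seen, were at 2.56 (1.47 to 4.34) and 4.18 times (1.89 to 9.14) in cortical MD.

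Among the other immediate early genes, 6 of 17 were higher in cortical MD and 0 lower, with a median ratio of 1.26, beside the same 15.3% and 14.1%. In medullary MD 5 of 15 were higher and 5 lower, with a median ratio of 1.03, beside 26.9% and 32.6% of all genes. There 18 of the 31 genes gave 0 counts in MD, and the genes compared went both ways. The summed list was nevertheless higher in MD than in TAL-α of both libraries. It held 931.9 against 774.4 CPM in cortex (1.203, 1.138 to 1.273) and 969.8 against 530.6 CPM in medulla (1.828, 1.553 to 2.139). Zfp36l1, which destabilises mRNAs with AU-rich elements, was at 2.20 times (1.84 to 2.62) in cortex and 2.38 times (1.496 to 3.61) in medulla. Ier3 was at 1.31 times (1.196 to 1.44) and 3.95 times (3.03 to 5.08). In medulla Ier3 alone made up most of the difference in the summed list between MD and TAL-α. Klf9 and the clock gene Per1, both glucocorticoid-responsive, were slightly lower in cortical MD, at 0.839 (0.736 to 0.953) and 0.802 times (0.657 to 0.971). Nr4a2, of the same receptor family as Nr4a1 and named after its values were seen, was at 4.14 times (1.81 to 9.33) on 13 and 15 counts. In the list of kinases and factors all 26 genes had enough counts, 2 (Elk3 and Crem) were at least 1.5 times higher in cortical MD and 0 lower, and their median ratio was 1.11. Of its most abundant genes, Rps6ka3 was at 1.40 times (1.27 to 1.54), Mef2a at 1.14, Atf2 at 0.946 and Mrtfa at 0.937 times.

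Heat shock genes report protein-folding stress. Of 11 heat shock genes compared between cortical MD and TAL-α, 0 were higher and 3 lower, with a median ratio of 0.837, again beside 15.3% and 14.1%. Bag3 was at 0.666 times (0.495 to 0.880), and Hspa8, Hsp90aa1 and Hsp90ab1 had intervals that included 1 (0.836, 0.961 and 1.16 times). Of 6 tubule injury genes, 3 (Krt18, Clu and Timp2) were higher and 1 (Krt8) lower. Clu, or clusterin, was at 3.38 times (2.21 to 5.12), Sox4 at 1.45, Spp1 at 1.25, and Cryab gave 0 counts in MD.

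In cortex the sums of TAL-β and TAL-α differed within counting error. They were 72.67 and 75.7 CPM (0.960, 0.842 to 1.09), and of 7 members compared, Ier2 was past 1.5 upward and Nr4a1 downward, both with intervals that included 1, beside 8.18% and 6.3% of all genes. In medulla the TAL-β sum was lower, at 86.5 against 105.2 CPM (0.822, 0.689 to 0.976). Of 5 members compared, 0 were past 1.5 upward and 2, Dusp1 and Ier2, downward, beside 9.7% and 11.2% of all genes. Ier2 rested on 1 count in TAL-β, and its interval included 1 (0.222, 0.0054 to 1.36). Dusp1 was at 14.8 CPM in TAL-β and 38.5 CPM in TAL-α, 0.385 times (0.248 to 0.573), and without it the sum was at 1.08 times (0.880 to 1.303). Both Dusp1 levels and both sums lay below medullary free RNA, at 53.0 CPM for Dusp1 and 121.5 CPM for the sum.

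Medullary TAL-γ had the highest Dusp1 of any class. It gave 514 counts in 3542 nuclei (56.8 CPM), 361 in TAL-α (38.5 CPM), 26 in TAL-β (14.8 CPM) and 3 in MD (18.1 CPM). TAL-γ was 1.48 times (1.29 to 1.69) TAL-α and 3.83 times (2.59 to 5.93) TAL-β, and its level was close to the 53.0 CPM (43.5 to 63.9) of medullary free RNA. The sum of the 10 genes was 1.202 times that of TAL-α (1.10 to 1.31), and 1.05 times (0.935 to 1.17) without Dusp1. Of the 6 members with enough counts, Egr1 was past 1.5 upward (2.38, 1.09 to 5.61, 23 and 10 counts) and Ier2 downward (0.647, 0.316 to 1.29), beside 4.88% and 7.65% of all genes. The Egr1 interval in TAL-γ, 1.61 to 3.81 CPM, included the 1.94 CPM of free RNA, and its ratio interval included 1 with stricter class thresholds (1.96, 0.9497 to 4.16), a Slc12a1 minimum of 20 (2.07, 0.924 to 4.95), thinning (2.83, 0.680 to 16.6) and without the marker-rich clusters (2.26, 0.976 to 5.68). Junb was at 1.47 times (1.02 to 2.12), or 1.39 (0.973 to 1.98) with stricter thresholds and 1.54 (0.842 to 2.87) after thinning, Jun at 0.955 and Klf6 at 1.04 times. Ier3 went the other way from Dusp1, at 25.7 against 100.5 CPM (0.256, 0.221 to 0.296). The proximal tubule list was at 661.7 CPM in TAL-γ and 679.4 CPM in TAL-α, and the 8 endothelial markers at 49.8 and 35.3 CPM, with none of either list at 0 in either class.

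Dusp1 was also uneven inside a class. The medullary cluster that was 96.56% TAL-α held it at 9.71 CPM, and the one that was 76.58% TAL-α held it at 54.0 CPM. Their other-cell markers were at 317.1 and 277.1 CPM. Another, 64.21% TAL-α and the rest TAL-γ, held 73.5 CPM. The clusters that were 75.87%, 78.5% and 95.9% TAL-γ held 86.6, 27.8 and 51.4 CPM. The cluster in which TAL-β was most frequent, at 58.95%, held 8.35 CPM. Across these 7 clusters Jun ran from 15.6 to 44.9 CPM and Klf6 from 20.7 to 44.7 CPM.

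Between regions, summed TAL-α counts held more Dusp1 and less Egr1 and Nr4a1 in medulla, and free RNA differed in the same directions. Dusp1 was at 38.5 CPM in medulla and 16.7 CPM in cortex (2.31 times, 1.88 to 2.83), Jun at 28.7 and 20.6 CPM (1.39, 1.14 to 1.70), and Klf6 at 26.6 and 21.5 CPM (1.24, 1.01 to 1.51). The Klf6 interval included 1 without the marker-rich clusters (1.16, 0.935 to 1.45). Egr1 was at 1.07 against 3.89 CPM (0.274, 0.120 to 0.573), Nr4a1 at 0.960 against 2.89 CPM (0.332, 0.135 to 0.746), and Fos gave 1 count against 12. In free RNA of medulla and cortex, Dusp1 was at 53.0 and 25.96 CPM, Egr1 at 1.94 and 9.03 CPM, and Nr4a1 at 3.40 and 7.15 CPM, and each of the 6 TAL-α levels of these genes was below the free RNA of its library. The sum was 1.39 times higher in medulla (1.26 to 1.54). Of 8 members compared, 1 was past 1.5 upward and 3 (Atf3, Egr1 and Nr4a1) downward, beside 5.9% and 20.3% of all genes, whose median ratio was 0.935. Cortical TAL-α carried 3772 CPM of proximal tubule markers and medullary TAL-α 679.4 CPM, and the endothelial list was at 101.4 and 35.3 CPM. All 10 and all 8 of these genes were at least 1.5 times lower in medulla and none was at 0. Without the marker-rich clusters, Dusp1 was 38.6 CPM in medulla and 5.30 CPM in cortex (7.28 times, 5.00 to 10.95), and Egr1 and Nr4a1 were at 0.365 (0.142 to 0.878) and 0.306 times (0.114 to 0.747). With barcodes of 3 or more other-cell marker counts removed instead, the Dusp1 ratio was 5.68 (3.36 to 10.3), whereas Egr1 and Nr4a1 were at 0.924 (0.235 to 3.83) and 0.962 times (0.207 to 4.85). That filter, unlike the cluster one, counted the podocyte list, and it left 1406 cortical and 1805 medullary TAL-α nuclei. Of the cortical cluster that held most MD nuclei, 22.38% was TAL-α by the rule, and that cluster held Egr1 at 33.9 CPM. In the cortical and medullary clusters purest in TAL-α (98.79% and 96.56%), Egr1 was at 0.586 and 0.747 CPM. Nr4a1 was at 1.46 and 0.747 CPM there, and Dusp1 at 4.69 and 9.71 CPM. The Egr1 levels of these 2 clusters rest on a few counts each, too few to show whether they differed. The part of free RNA, of MD-like nuclei and of Robo2 in the ratios was not tested.

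Within TAL-β the regions were closer, with 86.5 CPM in medulla and 72.67 CPM in cortex (1.19, 0.980 to 1.44), Dusp1 at 14.8 and 15.3 CPM (0.967, 0.596 to 1.52) and Klf6 at 30.7 and 21.2 CPM (1.45, 1.03 to 2.02), the last with an interval that included 1 at a Slc12a1 minimum of 20 counts (0.980 to 1.995). Of 5 members compared, 0 were past 1.5 in either direction, beside 4.81% of all genes upward and 20.7% downward. Without the marker-rich clusters the sum was at 1.55 times (1.21 to 1.97).

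Whether members shared nuclei was asked against the number expected if each member were detected independently at its class's rate and each nucleus's depth. In cortex, 31 nuclei held 3 or more members where 15.8 were expected (1.96 times, 1.33 to 2.78), and 9 held 4 or more where 2.33 were expected. In medulla 22 were seen and 13.7 expected (1.60 times, 1.00 to 2.42), and 4 against 0.620 for 4 or more. With 2 or more members, observed and expected were alike, at 138 against 137.4 in cortex and 220 against 218.9 in medulla. Nuclei with any member were fewer than expected, at 955 against 1099 and 1749 against 1965. The rates came from summed counts, so several counts of 1 member in a nucleus raise the expected number of detections. Numbers at or below expectation, here and by class below, are therefore not read as a lack of sharing. Most nuclei with a member had 1 alone, 817 cortical and 1529 medullary nuclei.

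**Figure D4:**
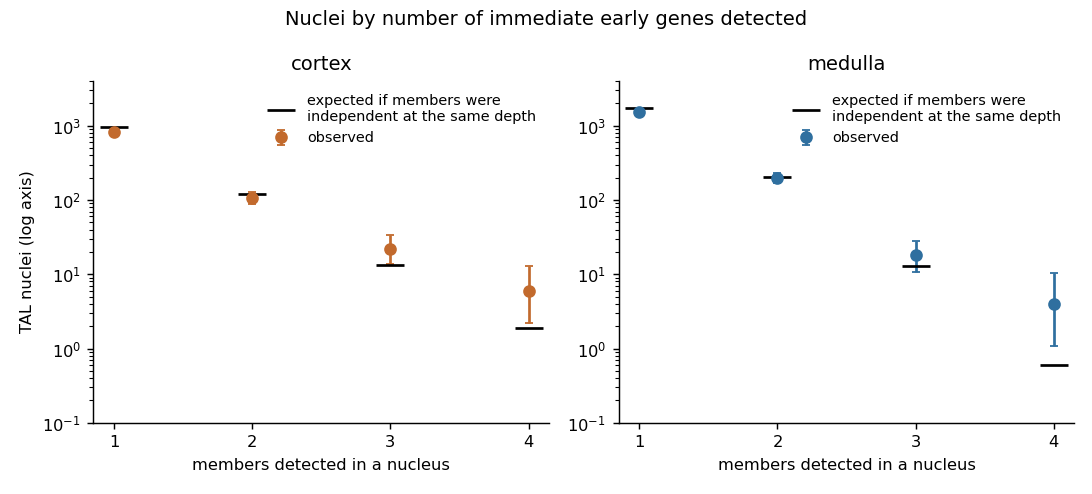
Number of TAL nuclei (vertical, log axis) in which 1, 2, 3 or 4 of the 10 members were detected, in each library; circles with bars are the observed number with its 95% Poisson interval and dashes the number expected from independent detection. The circles lie on or below the dashes at 1 and 2 members and above them at 4, where 6 and 4 nuclei were seen.

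In cortex, Fos, Fosb and Egr1 were found together most above expectation. Of 45 pairs, 8 in cortex and 3 in medulla had a lower bound above 1, and 2 pairs did so in both libraries. Pairs of other genes were not counted, so no share stands beside these numbers. All of the 8 cortical pairs except Junb with Dusp1 and Egr1 with Ier2 held Fos or Fosb. Pairs that share a gene reuse some of the same nuclei and are not separate results. Fos and Egr1 were together in 9 cortical nuclei where 1.03 were expected (8.74 times, 3.99 to 16.6) and in 2 medullary nuclei where 0.0819 were expected. Egr1 and Ier2 were together in 6 cortical nuclei where 1.97 were expected and in 2 medullary ones where 0.226 were. All 4 cortical nuclei with Fosb also had Fos, Egr1 and Jun, whereas in medulla 0 nuclei held Fosb with Fos or with Egr1. The Pearson correlations of log counts across nuclei had medians of 0.0092 in cortex and -6.7e-05 in medulla over the 45 pairs, with a highest value of 0.327 for Fos and Fosb. Summed over all pairs, co-detections were 1.34 times expectation in cortex (1.18 to 1.52) and 1.11 times in medulla (0.984 to 1.25). With barcodes of 3 or more other-cell marker counts removed, podocyte list included, they were 1.041 (0.607 to 1.67) and 1.014 times (0.804 to 1.26). The intervals of these sums take each co-detection as independent. A nucleus with several members adds several pairs, so these intervals are too narrow.

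By class, the numbers in cortical MD were near expectation, which is not read as a lack of sharing. In the cortical cluster that was 75.1% MD, 3 nuclei held 3 or more members where 0.939 were expected. In cortical MD, 6 nuclei held 3 or more members where 6.35 were expected and 34 held 2 or more where 34.9 were expected. In cortical TAL-α 11 nuclei were seen and 3.54 expected, in TAL-β 12 and 4.84, in medullary TAL-γ 15 and 8.04, and in medullary TAL-α 4 and 4.58. In the deposited clusters, 10 of the 31 cortical nuclei lay in a cluster of 216 barcodes that carried 1680 CPM of endothelial, 868.2 CPM of distal tubule and 717.8 CPM of collecting duct markers, where 0.680 were expected. This cluster held Fos at 9.41, Fosb at 4.71 and Egr1 at 29.4 CPM, and 3 of the 4 Fosb nuclei. Another 11 lay in a cluster with 13630 CPM of proximal tubule markers and a median of 6412 counts, where 7.45 were expected. In medulla, 9 of 22 lay in the TAL-γ-rich cluster with the highest Dusp1, where 1.71 were expected and the other-cell markers (podocyte genes left out) summed to 313.6 CPM. Another 5 lay in a cluster with 1120 CPM of distal tubule markers, where 1.79 were expected. These expected numbers used class rates, so a cluster richer in members can pass them without sharing inside its nuclei. With rates by deposited cluster and class, the library-wide co-detection ratios stayed within the intervals given above. Single clusters were not recomputed in that way. The cortical cluster of 216 barcodes held 170.6 CPM of members and the TAL-γ-rich one 167.1 CPM. All TAL nuclei held 83.26 CPM in cortex and 113.2 CPM in medulla.

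Nuclei with 3 or more members were deeper than those with none, with a median of 6137 against 2376 counts in cortex and 3490 against 2392 in medulla. More members are detected in a deeper nucleus at the same rate, so grouping by members detected selects depth. The doublet scores and markers that follow were not compared at matched depth. More of them were in the top 5% of doublet scores, 9.68% against 5.23% in cortex and 27.27% (6 of 22) against 5.37% in medulla. In cortex 7 of the 31 held over 10000 counts and gave 61.16% of their summed counts, and in medulla 3 of the 22 gave 48.09%, so sums are given with and without these deep nuclei. The 10 proximal tubule markers were in cortex at 10223 against 3011 CPM in nuclei with none, and at 6404 against 2815 CPM without deep nuclei. In medulla they were at 2356 against 552.1 CPM, and at 28.0 against 543.3 CPM without the 3 deep nuclei, on which the higher level therefore rested. The 8 collecting duct markers were at 849.7 against 28.3 CPM in cortex and at 80.0 against 11.1 CPM in medulla, and without deep nuclei at 1484 against 27.65 and at 84.1 against 11.09 CPM. The 8 endothelial markers were at 420.5 against 113 CPM in cortex, but at 90.8 against 111.9 CPM without deep nuclei. Slc12a1 was at 5325 against 14297 CPM in cortex and 16961 against 19897 CPM in medulla, and without deep nuclei at 7828 against 14469 and at 20456 against 19907 CPM.

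The 10 genes most enriched in the nuclei with 3 or more members in both libraries, of 3192 compared, were Slc4a9, Adgrf5, Iqgap2, Slc7a12, Nat8f3, 4930533I22Rik, Agxt2, Dpp4, Pdzd2 and Cubn. They were picked by their ratios in these same nuclei, so their intervals describe the pick and are no test of it. Without deep nuclei, Slc4a9, Adgrf5 and Iqgap2 still had lower bounds above 1 in both libraries, and in medulla Slc7a12, Nat8f3, 4930533I22Rik, Agxt2, Dpp4 and Cubn gave 0 counts and Pdzd2 gave 1. In cortex Slc7a12 then gave 0 counts, and the interval of 4930533I22Rik included 1 (2.08, 0.944 to 3.99). Slc4a9, an exchanger of intercalated cells, was 34.2 times higher in cortex (27.2 to 42.8) and 30.3 times in medulla (13.5 to 62.2), and 68.1 and 58.4 times without deep nuclei, on 122 and 10 counts. Adgrf5, an adhesion receptor, was at 10.6 and 49.6 times, and 10.6 and 70.4 times without deep nuclei.

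Without the marker-rich clusters the excess of nuclei with 3 or more members was 1.60 times in cortex (0.587 to 3.48) and 1.81 times in medulla (1.04 to 2.94), and without nuclei over 10000 counts 2.43 (1.56 to 3.61) and 1.53 times (0.921 to 2.39). With barcodes of 3 or more other-cell marker counts removed, 0 cortical nuclei held both Fos and Egr1, which allows up to 52.5 times expectation. The part of doublets and of other-cell RNA in the sharing was not tested further.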

How the data were processed

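Nuclear RNA of 1 cortical and 1 medullary sort was sequenced with PIPseq, and per the study's methods the authors aligned reads to GRCm39 and tallied transcripts with PIPseeker. The submitters' processing notes name bcl2fastq and Seurat 4.4.0. The deposited values used here are integer counts of transcripts before the authors' doublet and ambient RNA removal and integration, so free RNA and doublets remain. Scanpy 1.11.5 gave Scrublet scores for 1 alternative, and no barcode was removed in the values reported. The libraries held 16457300 and 20947211 counts, with 1268 to 59853 and 955 to 29770 per barcode.

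Counts were summed per class and library and divided by the summed total (CPM), with exact Poisson 95% intervals, conditional binomial intervals for ratios and Clopper-Pearson intervals for shares. They cover counting error only, since nuclei are not replicates and the study has 1 library per region. Genes with at least 20 counts in a pair of classes were compared, and a ratio of 1.5 was called. Expected co-detection used 1 minus exp of minus rate times depth per nucleus, summed without drawing numbers. The code was tested on simulated counts. The members and lists were chosen with earlier results of these data known. Named genes were the 10 members, the 4 genes with most TAL counts of each other list, and the 10 non-members with at least 10 counts in nuclei of 3 or more members in each library and the largest smaller ratio over the libraries; others are said to be named after their values were seen. Alternatives were the Slc12a1 minimum, stricter class thresholds, filters on genes and mitochondrial counts, doublet scores and other-cell markers, depth of 1000 counts, and leaving out Dusp1. MD against TAL-α in medulla, the ratios to TAL-β and the deposited cluster alternatives were chosen after seeing the data. Gene positions are from GENCODE M39 on GRCm39.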

Additional observations from a re-analysis of the deposited data

Results flagged for a closer look

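Barcodes with under 10 Slc12a1 counts, 224 in cortex and 154 in medulla, entered no comparison, and several members were above the 3 counts that a count of 0 allows. They are listed because these values lie outside the compared classes and above that limit, not because they exceed free RNA. In cortex these barcodes held Dusp1 at 54.5, Jun at 37.63, Klf6 at 16.87, Junb at 7.786, Egr1 at 6.489 and Ier2 at 5.191 CPM. In medulla they held Jun at 33.92, Dusp1 at 32.22, Egr1 at 13.57, Klf6 at 11.87, Fos, Junb and Ier2 at 8.479 each, and Fosb at 6.784 CPM. Fos was at 0.393 CPM in the medullary TAL nuclei and Fosb at 0.197 CPM, on 8 and 4 counts. The same barcodes carried 13089 and 13969 CPM of proximal tubule markers, all 10 of them above 0, and 366 and 181.5 CPM of endothelial markers. Free RNA was higher than these barcodes for Klf6 (24.83 CPM), Egr1 (9.03 CPM) and Ier2 (6.396 CPM) in cortex and for Dusp1 (52.97 CPM) and Klf6 (20.41 CPM) in medulla, and these 5 levels are not read as expression. The part of free RNA and of other cells in the remaining levels was not tested.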

How the results depend on the processing

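No paired analysis was possible because each region is 1 library with no replicate. Of 113 values over the summed levels and co-detection, 95 stayed within the interval of the value reported, 17 moved and 1 turned direction. The alternatives that use deposited clusters, or drop nuclei over 10000 counts or TAL-α nuclei with Nos1 or Pappa2 counts, were added after seeing the data. Without Dusp1, the summed ratio of TAL-β to TAL-α in medulla turned to 1.075, and the others were MD to TAL-α in cortex 2.287, TAL-γ to TAL-α 1.046, medulla to cortex in TAL-α 1.131 and all pairs in medulla 1.283. With barcodes of 3 or more other-cell marker counts removed, MD to TAL-α in cortex was 2.83, TAL-γ to TAL-α 1.435, the regions 1.681 in TAL-α and 1.611 in TAL-β, and all pairs in cortex 1.041; medullary MD, with 14 nuclei left, gave no value, and Klf6 in cortical MD turned to 0.5099 times and the Fos and Egr1 pair to 0. Without marker-rich clusters, MD to TAL-α in cortex was 2.534 and the regions 1.718 and 1.546. As deposited clusters, MD to TAL-α was 3.897 in cortex and 2.308 in medulla, both depending on the TAL-α cluster taken. At 1000 counts per nucleus, all pairs were 1.583 in cortex and 1.436 in medulla, nuclei with 3 or more members in medulla 6.742, and Klf6 between regions in TAL-β turned to 0.8928. The cause of these shifts was not tested. The filter on other-cell marker counts, which included the podocyte list, left 94 of 653 cortical MD and 1128 of 3542 medullary TAL-γ nuclei.

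Counts of members past 1.5 moved in 20 of 42 values. With at least 50 counts, TAL-β to TAL-α had 0 higher and 0 lower in cortex and 1 lower in medulla, MD to TAL-α in medulla 0 higher, TAL-γ to TAL-α 0 higher and 0 lower, and the regions in TAL-α 0 lower. With 1 count in each group, TAL-β to TAL-α had 4 lower in cortex and 3 higher in medulla, MD to TAL-α 1 lower in cortex and 5 higher in medulla, TAL-γ to TAL-α 3 higher and 2 lower, and the regions 5 lower in TAL-α and 1 higher and 2 lower in TAL-β. At a fold of 2, TAL-β to TAL-α in cortex had 0 higher and 0 lower, MD to TAL-α in medulla 1 lower and TAL-γ to TAL-α 0 lower.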

Other observations

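The 12 feedback genes that could be compared between cortical TAL-β and TAL-α included 5 that were at least 1.5 times higher in TAL-β (Dusp4, Dusp6, Dusp10, Spry2 and Spred2) and 1 lower (Dusp5), beside 8.18% and 6.3% of all genes. In medulla 7 of 11 were higher and Dusp5 was again lower, beside 9.7% and 11.2%. Medullary TAL-β held Spred2 at 167.9 against 107.7 CPM in TAL-α (1.56 times, 1.37 to 1.78) and Ier3 at 208.9 against 100.5 CPM (2.08 times, 1.84 to 2.35). Bag3, a heat shock gene, was at 105.1 CPM in medullary and 51.4 CPM in cortical TAL-α (2.05 times, 1.82 to 2.30), and at 137.8 CPM in medullary TAL-γ (1.31 times TAL-α, 1.21 to 1.43). These genes were the most abundant of their lists or are named with their whole count.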
